A study of Mus musculus with 10 samples.

Results

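The SLAM family (signalling lymphocytic activation molecule family) is a group of immunoglobulin-type receptors best known from blood cells. Its 9 members in the mouse were examined here in liver sinusoidal endothelial cells, the endothelium that lines the capillaries of the liver: Cd84, Slamf1, Ly9, Cd48, Cd244 (annotated as Cd244a), Slamf6, Slamf7, Slamf8 and Slamf9. All 9 were measured, each by 1 probe set, among 24704 genes in all. They were taken as a gene family, but the family was picked after Cd84 had been seen to be lower in the knockout. Their differences between the groups are therefore given as a description, without p-values.

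The Gata4-LSEC-KO group (5 arrays) came from offspring of mice with the transgene Clec4g-icre, on a C57BL/6N background, and mice with a floxed Gata4 gene (Gata4tm1.1Sad). The control group (5 arrays, labelled WT) came from siblings, for which the labels state neither Cre and floxed status nor sex and age. Clec4g control sequences drive the recombinase in sinusoidal endothelium, so other liver cells need not lose Gata4. Each array held the RNA of cells pooled from 3 mice and isolated with beads against CD146, and a difference between arrays is a difference between pools.

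Most SLAM receptors bind a copy of themselves on the neighbouring cell, while CD48, which is anchored in the membrane by a lipid, is the ligand of CD244. The longer cytoplasmic tails carry tyrosine motifs that recruit the small adaptor SAP, encoded by Sh2d1a, or its relatives encoded by Sh2d1b1 and Sh2d1b2. Depending on the adaptor, kinases such as FYN or phosphatases such as SHP-1 are then engaged. The receptors tune killing by natural killer cells, help between T and B cells, and uptake and killing of bacteria by macrophages.

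The promoters of the 2 members with a lower mean in the knockout, Cd84 and Slamf1, are shown first. They were picked by that direction, although the groups overlapped for Slamf1. The deleted gene encodes a factor that binds GATA sites, and its binding to these promoters was not tested. Each window runs from 250 bases before to 50 bases after the annotated start (RefSeq, GRCm38.p6). The Cd84 window lies at chr1:171839447-171839746 and the Slamf1 window at chr1:171766882-171767181, both on the plus strand. Capitals mark GATA (or TATC, the same letters on the other strand) and, in Slamf1, the hexamer around it.
Cd84: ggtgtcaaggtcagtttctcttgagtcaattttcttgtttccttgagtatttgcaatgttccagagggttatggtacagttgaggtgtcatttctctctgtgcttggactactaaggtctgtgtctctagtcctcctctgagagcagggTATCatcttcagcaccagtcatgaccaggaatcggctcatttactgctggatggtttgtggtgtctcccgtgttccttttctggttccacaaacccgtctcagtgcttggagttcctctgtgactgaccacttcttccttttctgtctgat
Slamf1: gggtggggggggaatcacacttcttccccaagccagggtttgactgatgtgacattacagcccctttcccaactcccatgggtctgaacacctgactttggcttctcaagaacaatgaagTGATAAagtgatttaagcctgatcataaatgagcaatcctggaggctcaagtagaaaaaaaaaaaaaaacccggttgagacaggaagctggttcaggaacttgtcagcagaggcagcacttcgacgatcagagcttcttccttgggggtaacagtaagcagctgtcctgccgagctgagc
On both strands, 4 hexamers were searched: AGATAA and also AGATAG, with A before the core, and TGATAA and also TGATAG, with T before it. The bare core GATA, which lies inside each of them, was searched as well. The Slamf1 window held TGATAA at positions -130 to -125 from the start. The Cd84 window held no hexamer and a single GATA core, on the minus strand at positions -101 to -98. Of the 8 members with a promoter entry (all but Ly9), 2 had a hexamer, Slamf1 and Slamf9, and 4 had a core, these and Cd84 and Slamf6. The windows of Slamf9 and Slamf6, whose means were not lower in the knockout, held 2 cores each. Among all 32851 promoter windows, 29.8% had a hexamer and 57.9% had a core. A match of letters is a description of the sequence and not a measured binding site.

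The values are log2 intensities after RMA, and the median of every array was 3.71. All 10 markers of sinusoidal endothelium averaged above that median. Their list means were 10.45 to 10.92 in Gata4-LSEC-KO and 10.96 to 11.25 in control arrays. All measured markers of hepatocytes (10), stellate cells (9), macrophages (12), leukocytes in general (10) and cholangiocytes (6) averaged above it too. Lying above the median therefore does not measure how pure the cells were. Gata4 read 8.35 to 8.90 in Gata4-LSEC-KO and 8.53 to 8.90 in control arrays (log2 difference -0.12 ± 0.13, SE, adjusted p = 0.742 by limma), and whether its probes lie in the deleted part is not given, so this does not check the labels. Control replicate 1 was least like the rest: its correlation with each of them, over all genes, was 0.920 to 0.944, where the other 9 arrays correlated at 0.969 to 0.988. Values without it are given beside the members it touches.

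Cd84 was the member that set the groups apart. It encodes a self-binding receptor whose tail recruits SAP and its relatives, and is known from B cells, T cells, macrophages, mast cells and platelets. The gene lies at chr1:171839697-171890718. Its values were 6.98, 6.84, 6.75, 6.56 and 6.62 in Gata4-LSEC-KO replicates 1 to 5, against 8.34, 8.34, 8.33, 8.21 and 8.21 in control replicates 1 to 5. Every knockout array lay below every control array, and an empty interval of 1.22 log2 units separated the groups. The means were 6.75 ± 0.17 in Gata4-LSEC-KO and 8.29 ± 0.07 in control arrays (SD, n = 5 each), a log2 difference of -1.54 ± 0.10 (SE), or 2.90-fold lower.

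The control arrays agreed closely on Cd84. Its spread within groups was 0.13 log2 units, and 9.09% of all genes had a smaller one. Of the 24704 genes, 6 had a lower log2 difference. Without control replicate 1 the log2 difference was -1.52, and over the 10 fits that left out 1 array it ran between -1.60 and -1.49. In cells isolated in bulk, fewer cells that carry a transcript and less of it per cell cannot be told apart.

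Of the 9 members, 1 passed the threshold of 0.05 on limma's adjusted p, Cd84, which was lower. Over all genes 2.14% passed in either direction, 0.846% being lower and 1.3% higher in the knockout. The groups did not overlap for 2 members, Cd84 and Slamf7, and for 4.93% of all genes. Since the family was picked for Cd84, nothing is read from these shares. The log2 difference was above 0 for 7 members and below 0 for 2, with a median of 0.18, while it was above 0 for 11077 genes and below 0 for 13627 genes of the whole table, with a median of -0.02.

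**Figure D1:**
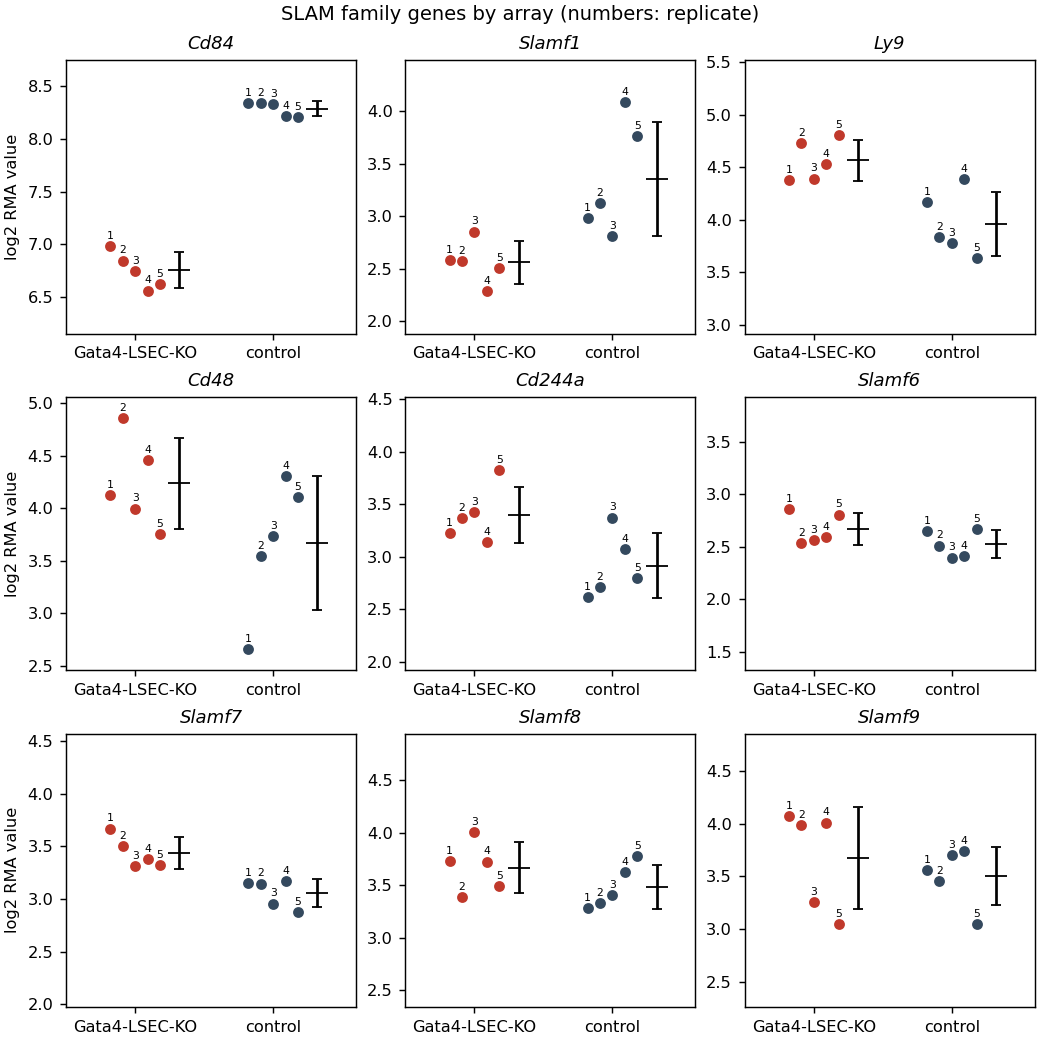
log2 RMA values of the 9 SLAM family genes in each array, Gata4-LSEC-KO on the left and control on the right of each panel, with the replicate number beside each point and the mean ± SD as a bar (n = 5). Every panel spans the same number of log2 units. Cd84 shows 2 tight, separate clusters, whereas for all other members except Slamf7 the groups overlap.

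Slamf1 was the other member with a lower mean. It encodes CD150, a self-binding receptor of T cells, macrophages and blood stem cells that also senses bacteria in phagosomes. Its values were 2.59, 2.57, 2.85, 2.29 and 2.51 in Gata4-LSEC-KO replicates 1 to 5, against 2.99, 3.12, 2.81, 4.08 and 3.76 in control replicates 1 to 5. The groups met at their edges, where knockout replicate 3 lay 0.04 above control replicate 3. The log2 difference was -0.79 ± 0.23 (SE), and the means were 2.56 ± 0.20 in Gata4-LSEC-KO and 3.35 ± 0.54 in control arrays (SD, n = 5 each).

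Control replicates 4 and 5 were the highest arrays. With 1 array left out, the difference of Slamf1 ran between -0.93 and -0.61, and without control replicate 1 it was -0.88. Both group means lay below the array median, so this difference is one between dim array values. No measured gene lies in the 38512 bases between Slamf1 and Cd84 on the chromosome.

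CD48 and CD244 form the ligand and receptor pair of the family, and both genes had higher means in the knockout. Cd48 read 4.13, 4.86, 4.00, 4.46 and 3.75 in Gata4-LSEC-KO replicates 1 to 5, against 2.66, 3.55, 3.74, 4.31 and 4.11 in control replicates 1 to 5. The groups overlapped widely, with control replicate 1 the lowest array and knockout replicate 2 the highest. The log2 difference was 0.57 ± 0.30 (SE), 0.31 without control replicate 1, and -0.38, with the sign turned, when the pan-leukocyte list mean was a covariate. Of all genes, 92.8% had a smaller spread within groups than Cd48.

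Cd244a, whose product is an activating or inhibitory receptor of natural killer cells, read 3.22, 3.37, 3.42, 3.14 and 3.83 in Gata4-LSEC-KO replicates 1 to 5. Control replicates 1 to 5 read 2.62, 2.71, 3.37, 3.08 and 2.79. Knockout replicate 5 was highest, and control replicate 3 reached into the knockout range. The log2 difference was 0.48 ± 0.17 (SE), and 0.41 without control replicate 1.

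Ly9 encodes CD229, a self-binding receptor of T and B cells. It read 4.38, 4.73, 4.39, 4.53 and 4.80 in Gata4-LSEC-KO replicates 1 to 5, against 4.17, 3.84, 3.78, 4.38 and 3.63 in control replicates 1 to 5. A single pair of arrays touched: control replicate 4 lay level with knockout replicate 1. The means were 4.57 ± 0.19 in Gata4-LSEC-KO and 3.96 ± 0.31 in control arrays (SD, n = 5 each), a log2 difference of 0.60 ± 0.16 (SE), which was 0.66 without control replicate 1.

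Slamf7, a self-binding receptor of natural killer and plasma cells, was the second member without overlap. It read 3.67, 3.50, 3.31, 3.38 and 3.32 in Gata4-LSEC-KO replicates 1 to 5, against 3.15, 3.15, 2.96, 3.17 and 2.88 in control replicates 1 to 5. The log2 difference of 0.38 ± 0.11 (SE) was small, and the empty interval between the groups was 0.14. Both means, 3.44 ± 0.15 in Gata4-LSEC-KO and 3.06 ± 0.13 in control arrays (SD, n = 5 each), were under the array median.

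The remaining 3 members differed little between the groups. Slamf6, known as Ly108 in the mouse and a regulator of T cell help, read 2.53 to 2.85 in Gata4-LSEC-KO and 2.40 to 2.67 in control arrays, with a log2 difference of 0.14 ± 0.11 (SE). Slamf8 and Slamf9 encode receptors of myeloid cells with short tails that lack the tyrosine motifs. Slamf8 read 3.38 to 4.00 in Gata4-LSEC-KO and 3.28 to 3.77 in control arrays (0.18 ± 0.14, SE), and Slamf9 read 3.04 to 4.07 in Gata4-LSEC-KO and 3.05 to 3.74 in control arrays (0.17 ± 0.22, SE). With 1 array left out, the difference of Slamf8 ran between 0.10 (without knockout replicate 3) and 0.26, and that of Slamf9 between 0.06 (without control replicate 5) and 0.33 (without knockout replicate 5). Without control replicate 1, the lowest array for Slamf8, the difference of Slamf8 was 0.13. When the fit held the mean of the hepatocyte markers, Slamf9 was at -0.08. In all 3 the groups overlapped, and the knockout arrays of Slamf9 split into replicates 1, 2 and 4, at 3.99 to 4.07, and replicates 3 and 5, at 3.26 and 3.04.

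**Figure D2:**
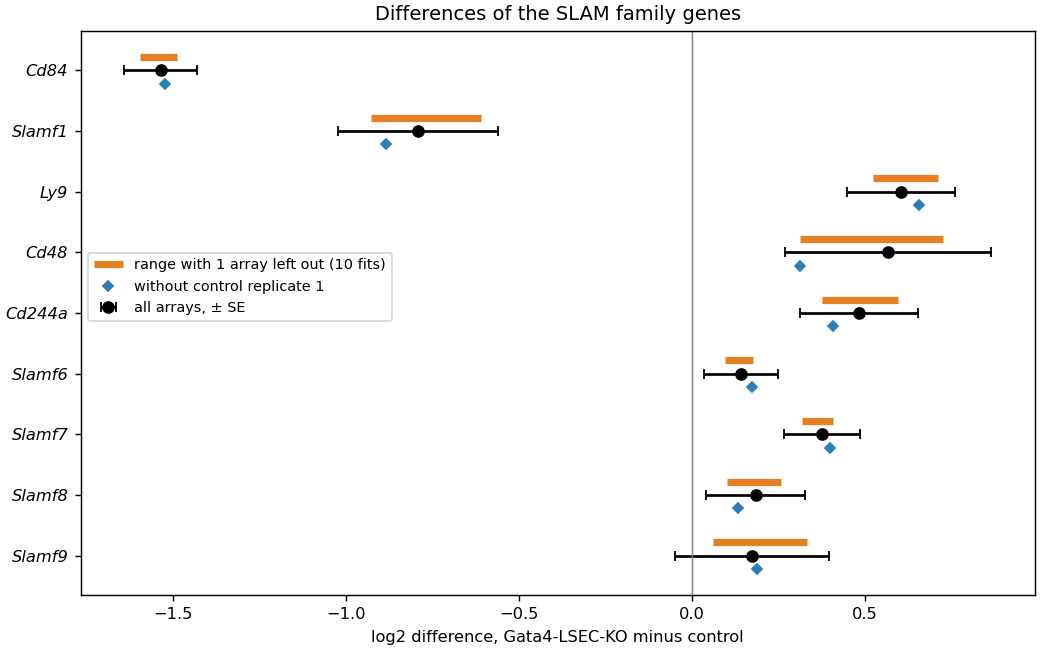
log2 difference, Gata4-LSEC-KO minus control, of each member (black point, ± SE), its range over 10 fits with 1 array left out (orange bar) and its value without control replicate 1 (blue diamond). Cd84 lies at -1.54 and Slamf1 at -0.79, and the other 7 lie between 0.14 and 0.60.

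The 9 genes lie in one stretch of 1032156 bases of chromosome 1. Reading along it, Cd244a, Ly9, Slamf7, Cd48, Slamf1, Cd84 and Slamf6 form a run of 7 members over 390241 bases with no other measured gene in between. After a gap of 509610 bases follow Slamf9 and Slamf8. The sign of the difference changed within the run: the first 4 members had higher means in the knockout, and Slamf1 and Cd84 lower ones. Slamf6, which begins 26739 bases after Cd84 ends, had a difference close to 0. Of these 7 members only Cd84 passed the threshold, and the groups overlapped for all but Cd84 and Slamf7.

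The measured genes between the members were not chosen by their values and were tested with limma over all genes. Of 19 such neighbours, 0 passed the threshold, where 2.14% of all genes did. An unadjusted p under 0.05 was found for 3 (15.8%), against 13.6% of all genes. Their median log2 difference was -0.08, against -0.02 for all genes. The smallest p-values belonged to Tagln2, an actin-binding protein, and Vangl2, a planar polarity protein. Tagln2 read 8.83, 8.82, 8.89, 8.83 and 8.99 in Gata4-LSEC-KO replicates 1 to 5, against 8.25, 8.56, 8.69, 8.47 and 8.74 in control replicates 1 to 5, without overlap (log2 difference 0.33 ± 0.11, SE, adjusted p = 0.186). Vangl2, the measured gene next to Slamf6, differed by -0.36 ± 0.13 (SE, adjusted p = 0.211).

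**Figure D3:**
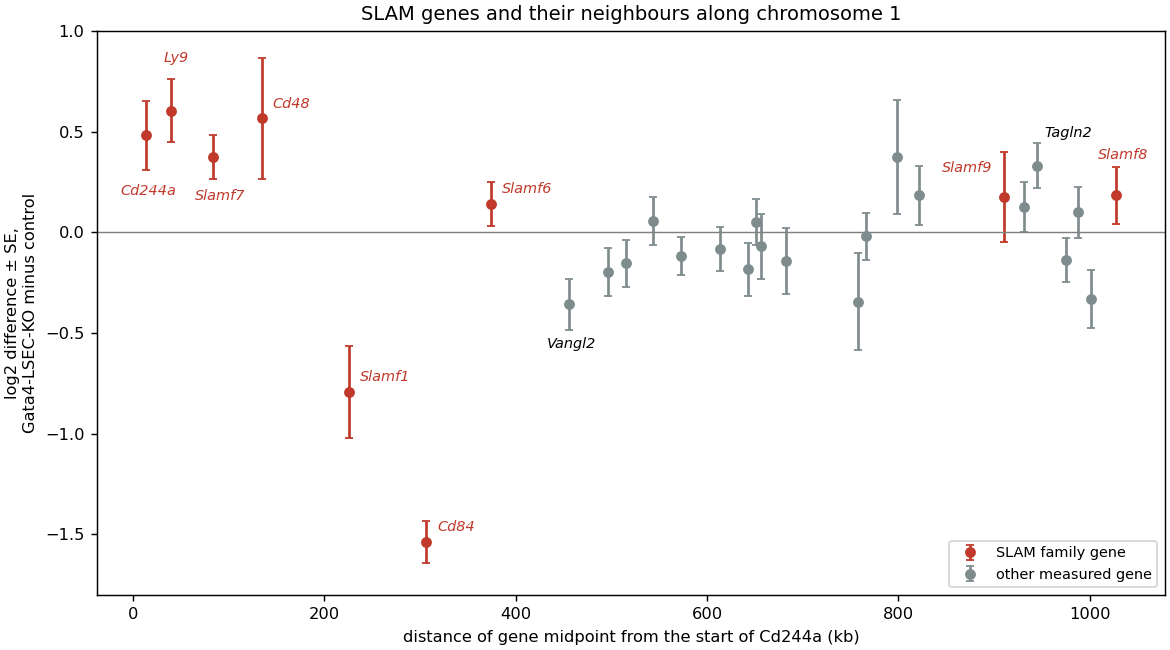
log2 difference ± SE (Gata4-LSEC-KO minus control) of the SLAM family genes (red) and of the 19 other measured genes between them (grey), against the distance of each gene's midpoint from the start of Cd244a in kilobases. Slamf1 and Cd84 lie next to each other and lowest, and the grey points stay between -0.36 and 0.38.

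The genes through which SLAM receptors signal were examined as a list of 18, of which 17 were measured. With limma over all genes 0 of the 17 passed, where 2.14% of all genes did. An unadjusted p under 0.05 was found for 3 (17.6%), against 13.6% of all genes. Their median log2 difference was 0.06, with 9 above 0 and 8 below. The adaptors that define the pathway in lymphocytes were dim in both groups. Sh2d1a averaged 2.13 ± 0.22 in Gata4-LSEC-KO and 2.29 ± 0.12 in control arrays (SD, n = 5 each, adjusted p = 0.637). Sh2d1b1 averaged 1.82 ± 0.41 in Gata4-LSEC-KO and 1.87 ± 0.18 in control arrays (SD, n = 5 each, adjusted p = 0.942). Sh2d1b2 averaged 3.02 ± 0.22 in Gata4-LSEC-KO and 3.34 ± 0.45 in control arrays (SD, n = 5 each, adjusted p = 0.547). All of these means lay below the array median.

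Among the other signalling genes, the 2 with the smallest p-values pointed opposite ways. Prkcq, the protein kinase C isoform that acts downstream of SAP and FYN in T cells, read 6.64 to 7.16 in Gata4-LSEC-KO and 7.24 to 7.52 in control arrays. Ptpn6, which encodes the phosphatase SHP-1, read 6.32, 7.01, 6.46, 6.36 and 6.52 in Gata4-LSEC-KO replicates 1 to 5, against 5.99, 5.60, 5.72, 6.28 and 6.07 in control replicates 1 to 5. Neither gene overlapped between the groups, yet neither passed: the log2 difference was -0.51 ± 0.13 for Prkcq (SE, adjusted p = 0.0706) and 0.60 ± 0.17 for Ptpn6 (SE, adjusted p = 0.0994). Ptpn6 was highest in knockout replicate 2, the array with the highest mean of the pan-leukocyte list.

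**Figure D4:**
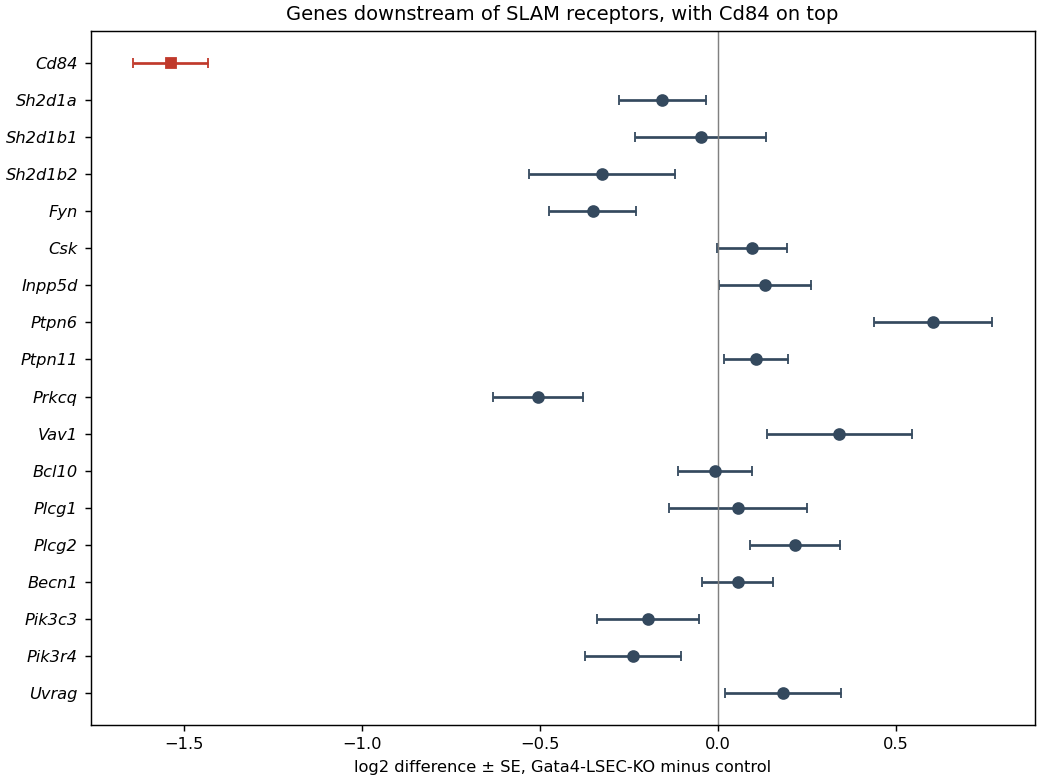
log2 difference ± SE, Gata4-LSEC-KO minus control, of the 17 measured genes downstream of SLAM receptors (dark points), with Cd84 (red square) on top for scale. The 17 lie between -0.51 and 0.60, and Cd84 lies at -1.54.

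SLAM receptors are known from leukocytes, so the levels of leukocyte markers were set beside the members. In the Kupffer cell and macrophage list, 0 of 12 measured markers passed limma's threshold and 1 had an unadjusted p under 0.05. The shares over all genes were 2.14% and 13.6%. Of the 12 markers, 11 had a log2 difference above 0. The log2 of their summed level was 10.87 to 11.86 in Gata4-LSEC-KO and 9.40 to 11.99 in control arrays, and the list mean was 7.13 to 8.12 in Gata4-LSEC-KO and 5.35 to 8.20 in control arrays. Control replicate 1, the array least like the rest, had the list mean of 5.35, and the other control arrays had 6.92 to 8.20. With that array included, the median log2 difference of the list was 0.39. Clec4f, a lectin gene specific to Kupffer cells, was its 1 member below 0, at 8.44 ± 0.61 in Gata4-LSEC-KO and 8.59 ± 0.74 in control arrays (SD, n = 5 each). The member with the highest difference, Mpeg1, a pore-forming protein of macrophages that was chosen after its value was seen, averaged 7.80 ± 0.35 in Gata4-LSEC-KO and 6.74 ± 1.19 in control arrays (SD, n = 5 each, adjusted p = 0.352). No marker can be called absent, since detection calls were not used here.

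Set beside the macrophage list, Cd84 read 6.84 in knockout replicate 2, which had the highest list mean of its group, 8.12, and 6.56 in knockout replicate 4, which had the lowest, 7.13. Among the controls it read 8.21 in replicate 4, which had the highest list mean, 8.20, and 8.34 in replicate 1, which had the lowest, 5.35. The order was not the same throughout the knockout arrays. Knockout replicate 5 had a list mean of 7.90 and a Cd84 value of 6.62. Knockout replicate 1 had a list mean of 7.17 and the highest Cd84 value of its group, 6.98. With the macrophage list mean as a covariate the log2 difference of Cd84 was -1.52. The part of macrophages in the value of Cd84 was not tested.

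The platelet, T cell and B cell lists had means that overlapped between the groups. In the megakaryocyte and platelet list 0 of 8 markers passed, with means of 4.10 to 4.20 in Gata4-LSEC-KO and 4.01 to 4.21 in control arrays. In the T cell list 0 of 9 passed and none averaged above the array median, with means of 2.98 to 3.10 in Gata4-LSEC-KO and 2.79 to 3.13 in control arrays. In the B cell list 0 of 9 passed, with means of 3.31 to 3.71 in Gata4-LSEC-KO and 3.09 to 3.59 in control arrays. The B cell means overlapped only through control replicate 1, at 3.59, as the other control arrays read 3.09 to 3.22. Of the 9 B cell markers, 7 had a log2 difference above 0. The natural killer cell list (0 of 10), the dendritic cell list (0 of 9) and the mast cell and basophil list (0 of 7) held no gene past the threshold either. The share past it over all genes was 2.14%. At an unadjusted p under 0.05, limma counted 1 platelet, 0 T cell, 1 B cell, 2 natural killer cell, 2 dendritic cell and 0 mast cell and basophil markers, where 13.6% of all genes lay under the same value.

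Cd48 values are given here beside the pan-leukocyte markers. In that list 0 of 10 markers passed by limma, although 7 had an unadjusted p under 0.05. The shares over all genes were 2.14% and 13.6%. Of the 10, 8 had a log2 difference above 0, and the list mean was 6.56 to 7.16 in Gata4-LSEC-KO and 5.90 to 6.61 in control arrays. The log2 of the summed level was 10.11 to 10.76 in Gata4-LSEC-KO and 9.80 to 10.32 in control arrays. Control replicate 1 was lowest and knockout replicate 2 highest for both Cd48 and the list. The order of the arrays was not the same throughout. Knockout replicate 5 had the second highest list mean, 6.93, and the lowest Cd48 value of its group, 3.75. Knockout replicate 3 had a higher list mean than knockout replicate 1 (6.62 against 6.56) and a lower Cd48 value (4.00 against 4.13). The part of these markers in the higher values of Cd48, Ly9, Cd244a and Slamf7 was not tested.

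The neutrophil and plasma cell lists held called genes, where 2.14% of all genes were called. In the neutrophil list 5 of 11 markers passed, all higher, among them S100a8 (log2 difference 3.16 ± 0.53, SE, adjusted p = 0.00981) and S100a9 (2.78 ± 0.43, SE, adjusted p = 0.00666), both subunits of calprotectin. The list mean was 3.91 to 5.55 in Gata4-LSEC-KO and 3.02 to 3.53 in control arrays. The calls of all 5 were lost with the pan-leukocyte list mean as a covariate, where the adjusted p of S100a8 by limma was 0.574. With that covariate 55 of all 24704 genes passed, where 529 did without it. Retnlg, 1 of the 5, was called in 10 of 18 alternative fits. In the plasma cell list 1 of 6 passed, Jchain (1.40 ± 0.23, SE, adjusted p = 0.00925), the joining chain of secreted antibodies. Its call was lost with the same covariate (adjusted p = 0.220), and the plasma cell list as a whole had a median log2 difference of -0.07, with 2 of 6 genes above 0. Its member Sdc1, a surface proteoglycan gene chosen after its value was seen, had a log2 difference of -0.72 ± 0.22 (SE, adjusted p = 0.147). Prdm1, with Jchain the only members above 0, had one of 0.56 ± 0.13 (SE, adjusted p = 0.053 by limma). Of the 6 genes, 3 had an unadjusted p under 0.05. Whether neutrophils or plasma cells contribute to the SLAM values was not tested.

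**Figure D5:**
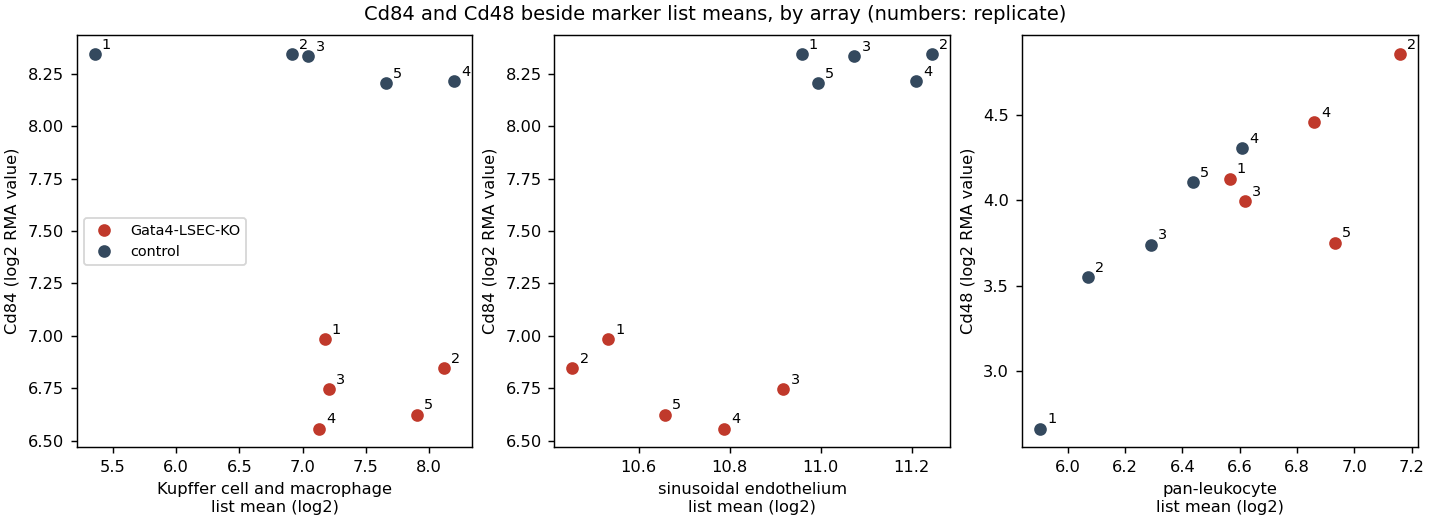
Cd84 against the mean of the macrophage list (left) and of the sinusoidal endothelium list (middle), and Cd48 against the mean of the pan-leukocyte list (right), all as log2 values, with 1 point per array and the replicate number beside it. In the left panel the knockout arrays lie between 6.56 and 6.98 and the control arrays between 8.21 and 8.34 on the Cd84 axis.

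Markers of the sinusoidal list were mostly lower in the knockout. The pan-endothelial list had a median log2 difference of 0.06, with 6 of 10 genes above 0. Over all genes 2.14% passed limma's threshold. In the sinusoidal list 4 of 10 markers passed, all lower, with Clec4g (log2 difference -0.76 ± 0.14, SE, adjusted p = 0.0207), the gene whose control sequences drive the Cre, and the coagulation factor gene F8 (-0.65 ± 0.15, SE, adjusted p = 0.047) the largest. The call of Clec4g was lost in 7 and that of F8 in 13 of 18 alternative fits. The log2 of the list's summed level was 13.85 to 14.35 in Gata4-LSEC-KO and 14.40 to 14.75 in control arrays. In the pan-endothelial list 1 of 10 passed, Mcam (1.24 ± 0.11, SE, adjusted p = 0.000242), which encodes the CD146 used to isolate the cells, and the list mean was 9.68 to 10.10 in Gata4-LSEC-KO and 9.62 to 9.86 in control arrays. The part of these in the value of Cd84 was not tested.

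The genes most like Cd84 were found by the root mean square difference between gene-centred log2 values over all 10 arrays. The nearest were Pla2g7 (0.21), Acer3 (0.22), Gna14 (0.22), Iqgap2 (0.22) and Clec1b (0.23 log2 units). Pla2g7 encodes a secreted phospholipase that inactivates platelet-activating factor, and averaged 6.64 ± 0.20 in Gata4-LSEC-KO and 8.05 ± 0.19 in control arrays (SD, n = 5 each). Acer3 encodes an alkaline ceramidase, and averaged 5.84 ± 0.09 in Gata4-LSEC-KO and 6.99 ± 0.06 in control arrays (SD, n = 5 each). In both genes, as in Gna14, Iqgap2 and Clec1b, every knockout array lay below every control array.

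The other 3 spread more within the knockout. Gna14 encodes a G protein alpha subunit and averaged 5.03 ± 0.35 in Gata4-LSEC-KO and 6.33 ± 0.24 in control arrays (SD, n = 5 each). Iqgap2, a scaffold protein of the cytoskeleton, averaged 6.81 ± 0.26 in Gata4-LSEC-KO and 8.06 ± 0.11 in control arrays (SD, n = 5 each). Clec1b, the podoplanin receptor, read 7.87, 7.88, 7.40, 7.66 and 6.98 in Gata4-LSEC-KO replicates 1 to 5, against 9.03, 8.72, 8.96, 9.03 and 8.92 in control replicates 1 to 5. All 5 genes were chosen for their likeness to Cd84, so their differences between the groups are a description.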

How the data were processed

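Per the labels, biotinylated cRNA of sinusoidal endothelial cells was run on Affymetrix arrays in 1 colour. The authors' deposited values are log2 values made with RMA, a tool named without a version in the submitters' processing notes. RMA corrects background, makes the arrays share 1 distribution and summarises probes. No source used here gives the array design or the probe locations. Of 25428 probe sets, 723 without a symbol were left out, and 24704 genes remained, with the brighter probe set kept for the 1 symbol that had several. Names and positions came from RefSeq (GRCm38.p6). The comparison used lmFit and eBayes of limma 3.58.1 under R 4.3.3 on all 10 arrays without covariates or filter, two-sided, with Benjamini-Hochberg adjustment over all genes. The procedure was tested on simulated data. P-values measure the spread between pools, and having 5 arrays per group limits the precision.

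The members and gene lists were chosen with earlier results of these data known. The text names all members, Gata4 and the 3 adaptor genes. It names the signalling genes and the chromosomal neighbours past the threshold (or the 2 with the smallest p). The 5 genes most like each member past the threshold are named too. From the marker lists described by genes, up to 2 past the threshold or the brightest are named. Mpeg1, Sdc1, Prdm1 and Retnlg were named beside these, after their values were seen. Of the 15 marker lists, those of hepatocytes (0 of 10 past the threshold, 2 with an unadjusted p under 0.05), and stellate cells (0 of 9, again 2) complete the account, together with that of cholangiocytes: 1 of 6 passed, all 6 had an unadjusted p under 0.05 and were higher, the median log2 difference was 1.43, and the list means did not overlap (4.49 to 6.79 in Gata4-LSEC-KO, 3.55 to 4.39 in control arrays). Over all genes 2.14% passed and 13.6% had an unadjusted p under 0.05. The hepatocyte list mean was 8.74 and 8.43 in knockout replicates 1 and 4, and 6.83 to 7.40 in all other arrays. Of the 10 hepatocyte markers, 9 had a log2 difference above 0. The alternatives were 2 other spread models, array weights, a filter on dim genes, the replicate number as a block, 3 list means as covariates, and leaving out each array.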

Additional observations from a re-analysis of the deposited data

Results flagged for a closer look

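Of 74 groups of 5 arrays examined (members, other named genes and marker list means in each group), 3 held an array whose gap to the nearest other array was large for the group's range, where chance gives about 5% of groups. None of the 18 groups of the SLAM members was among them. Ptpn6 was high in Gata4-LSEC-KO replicate 2 (7.01, with the others at 6.32 to 6.52, a gap of 0.711 of the range). The B cell list mean was high in control replicate 1 (3.59, with the others at 3.09 to 3.22, a gap of 0.742 of the range). The neutrophil list mean was high in control replicate 3 (3.53, with the others at 3.02 to 3.15, a gap of 0.746 of the range).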

How the results depend on the processing

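The log2 difference of Cd84 ran from -1.60 to -1.42 over the 18 alternative fits, which is a description, since the family was picked for it. The count of members past the threshold, 1 with all arrays and no covariate, became 3 with array weights (Cd84, Slamf1 and Ly9) and 2 with the macrophage list mean as a covariate (Cd84 and Slamf1). With 1 array left out it was 1 to 2, being 2 without control replicate 4 (Cd84 and Ly9). The signs of the other members held except for Cd48 with the pan-leukocyte mean as a covariate (-0.38) and Slamf9 with the hepatocyte mean (-0.08); the pan-leukocyte mean was itself higher in the knockout. With that covariate Slamf1 was at -1.21. Of the signalling genes 1 passed with array weights, Prkcq, and 0 with any array left out; of the neighbours 0 passed in any fit, and 0 with any array left out. The count over all genes, 529, was 1070 with array weights, 275 with the replicate block, 55 with the pan-leukocyte mean, 284 with the hepatocyte mean, and 287 to 737 with 1 array left out. Arrays of the same number shared only that number: their deviations from the group means correlated at -0.16 to 0.04, and 0 of 10 arrays correlated best with their own number. The block changed no member's call. The cause of these shifts was not tested. Without detection calls, differences of members below the array median are limited by their low signal.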
